A study of Mus musculus with 12 samples.

Results

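Matrix metalloproteases are zinc enzymes that cut collagen, gelatin, elastin and other parts of the extracellular matrix, and neutrophils carry several of them ready-made in their granules. Mmp8 (neutrophil collagenase) and Mmp9 (gelatinase B) are stored in the specific and gelatinase granules, Mmp25 (leukolysin) is held on membranes by a lipid anchor, Mmp12 (macrophage elastase), Mmp13 (collagenase 3) and the transmembrane Mmp14 are better known from macrophages and stromal cells, and Adam8 and Adam17 are membrane proteases that shed surface proteins. The tissue inhibitors Timp1 and Timp2 bind and block the active enzymes, and Timp2 also helps Mmp14 to activate other metalloproteases. These 10 genes were picked by symbol from the 55335 gene rows of each library, and all 10 were found there. Neutrophil granule mRNAs are made mostly during maturation in the bone marrow (BM), while their proteins persist after the cell has left it, so the values below are mRNA levels and not enzyme amounts.

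Their mRNA was counted in neutrophils of 3 groups of 4 mice, all on the FVB background, 10 weeks old and housed under specific and opportunistic pathogen free conditions. Tumor associated neutrophils (TANs) came from mammary tumors of PyMT mice, which carry the polyoma middle T oncogene as a transgene, and from mammary tumors of PyMT-Cxcr2-/- mice, which carry the same transgene and lack the chemokine receptor Cxcr2. The remaining group was BM neutrophils of WT mice, with neither the transgene nor the deletion, so that tissue, tumor and transgene differ together when TANs are set against BM. Cells were sorted as CD45+ CD11b+ Ly6G+ F4/80-, and the deletion was present in every cell of the animal and not in neutrophils alone. Reads on genes numbered 25032704 to 43092085 per library for PyMT TANs, 35519181 to 51351569 for PyMT-Cxcr2-/- TANs and 38722900 to 44310707 for BM neutrophils.

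The deleted gene followed the labels, with Cxcr2 at 8.82 to 10.02 CPM (counts per gene relative to the library total on genes, scaled by TMM) in PyMT-Cxcr2-/- TANs, 1044 to 1524 CPM in the PyMT TANs and 1825 to 2253 CPM in BM neutrophils. Neutrophil markers were present in all libraries, their 10 genes adding up to 10866 to 16265 CPM in the PyMT TANs, 16865 to 27257 CPM in the PyMT-Cxcr2-/- TANs and 69519 to 91355 CPM in BM. RNA of other cells moved with the tissue. The 10 macrophage markers added up to 2209 to 5304 CPM in the PyMT TANs, 2403 to 4998 CPM in the PyMT-Cxcr2-/- TANs and 256.2 to 359.2 CPM in BM. All 10 were higher in both TAN groups than in BM, beside 30.1% and 34.4% of all genes tested, although the gate left out F4/80+ cells. The 8 epithelial markers added up to 47.0 to 438.8 CPM, 83.6 to 304.6 CPM and 0.0600 to 0.516 CPM in the same order, and the 7 fibroblast markers to 1.96 to 14.3 CPM, 2.53 to 40.1 CPM and 0.224 to 1.89 CPM. Krt8, Krt5, Krt14 and Csn3 of the epithelial list and Lum and Pdgfra of the fibroblast list had no count in any BM library. In such mixed RNA, fewer cells of a type and less RNA per cell cannot be told apart.

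3 of the members, Mmp13, Mmp12 and Mmp8, lie in a cluster of 10 metalloprotease genes on chromosome 9, and their values went in different directions. Their upstream sequence is shown with that of Mmp25. Mmp25 changed in the same directions as Mmp8, although its levels over the 12 libraries followed those of Mmp9 more closely. The bases are those before the RefSeq start site in GRCm38.p6, read 5′ to 3′ on the strand of the gene, and stop at the most upstream start of RefSeq or GENCODE. Capitals mark exact matches to 4 motifs, namely the TATA box TATAAA on the gene strand, the AP-1 motif TGANTCA, the PEA3 motif AGGAAG and the C/EBP motif TTGCNNAA, each of the last 3 on either strand.
Mmp13 (chr9:7272264-7272513, plus strand): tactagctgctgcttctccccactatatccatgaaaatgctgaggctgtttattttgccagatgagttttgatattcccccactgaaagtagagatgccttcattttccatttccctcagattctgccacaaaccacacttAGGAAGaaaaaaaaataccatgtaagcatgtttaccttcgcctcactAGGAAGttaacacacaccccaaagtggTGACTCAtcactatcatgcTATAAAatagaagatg
Mmp12 (chr9:7344147-7344380, plus strand): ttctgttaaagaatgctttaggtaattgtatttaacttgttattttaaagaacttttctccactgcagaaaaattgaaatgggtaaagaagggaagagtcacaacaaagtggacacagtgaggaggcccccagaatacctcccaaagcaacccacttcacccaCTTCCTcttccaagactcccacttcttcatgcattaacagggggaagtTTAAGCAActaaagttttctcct
Mmp8 (chr9:7558179-7558428, plus strand): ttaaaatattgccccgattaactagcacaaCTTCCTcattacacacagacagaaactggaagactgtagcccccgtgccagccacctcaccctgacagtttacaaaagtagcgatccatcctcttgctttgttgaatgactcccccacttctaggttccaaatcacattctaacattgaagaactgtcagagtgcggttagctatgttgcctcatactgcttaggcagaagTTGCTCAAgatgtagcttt
Mmp25 (chr17:23645278-23645519, minus strand): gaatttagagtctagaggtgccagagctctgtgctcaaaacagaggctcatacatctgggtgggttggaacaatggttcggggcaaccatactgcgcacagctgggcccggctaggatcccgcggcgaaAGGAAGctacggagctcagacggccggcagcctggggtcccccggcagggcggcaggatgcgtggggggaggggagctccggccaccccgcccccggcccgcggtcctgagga
Of the 10 members, 9 (all but Mmp9) had an entry in the RefSeq table and 8 had bases upstream of both annotated starts. The PEA3 motif was in 7 of these 8 windows, against 29.5% of the 32851 promoters of the table over 250 bases. The C/EBP motif was in those of Mmp8, Mmp12 and Adam8 and in 9.56% of all. The AP-1 motif and the TATA box were in the window of Mmp13 alone among the 8, and in 6.75% and 7.59% of all. No match overlapped another, and none marks a bound site.

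**Figure D1:**
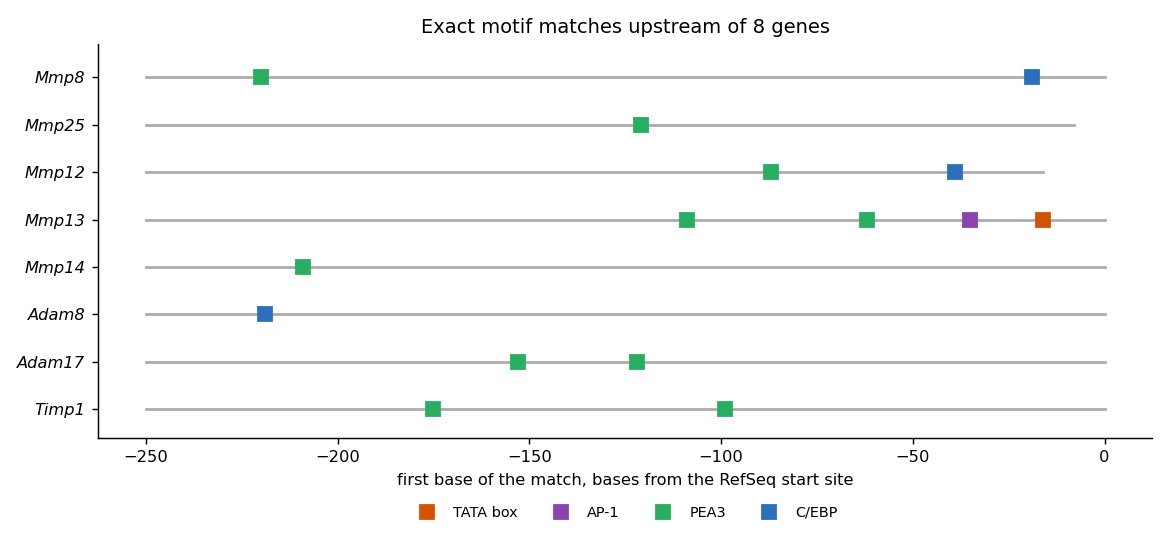
Exact motif matches (squares, colored by motif) in the bases upstream of 8 genes, by distance of the first base of the match from the RefSeq start site; grey lines are the bases searched, up to 250. Mmp13 holds 4 matches and the other genes 1 or 2.

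The granule proteases were at their highest in BM. Mmp8 stood at 5299, 4996, 4399 and 4948 CPM in the 4 BM libraries, 4911 ± 375 CPM (SD, n = 4). It stood at 331.9, 184.1, 278.4 and 155.1 CPM in the PyMT TANs, 237.4 ± 82.1 CPM, and at 648.2, 674.3, 833.9 and 1185 CPM in the PyMT-Cxcr2-/- TANs, 835.2 ± 247 CPM. No library of one group reached another group's range, and the means of the TANs were 4.83% and 17.0% of the BM mean.

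Mmp9 was 8571, 6124, 5768 and 6039 CPM in BM, 1221, 950.9, 1127 and 475.4 CPM in the PyMT TANs and 1679, 1611, 2365 and 2858 CPM in the PyMT-Cxcr2-/- TANs. The 3 groups again did not overlap, and the TAN means were 14.2% and 32.1% of the BM mean. Mmp25 was 1223, 887.8, 883.1 and 913.1 CPM in BM, 134.4, 116.1, 123.6 and 60.2 CPM in the PyMT TANs and 205.0, 241.1, 267.0 and 408.7 CPM in the PyMT-Cxcr2-/- TANs, with TAN means at 11.1% and 28.7% of BM. For both genes PyMT TAN replicate 4 was the lowest library and PyMT-Cxcr2-/- TAN replicate 4 the highest TAN library, and the same PyMT-Cxcr2-/- library was the highest TAN library for Mmp8.

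The macrophage-type proteases had the opposite order. Mmp12 had no count in any of the 4 BM libraries and was 39.6, 72.4, 86.0 and 145.0 CPM in the PyMT TANs and 84.1, 102.8, 60.5 and 43.2 CPM in the PyMT-Cxcr2-/- TANs. The TAN groups overlapped throughout, with 85.8 ± 44.0 CPM and 72.6 ± 26.2 CPM (SD, n = 4 each). Mmp13 was low in all groups, at 5.97, 9.65, 1.77 and 8.96 CPM in the PyMT TANs, 7.66, 6.75, 3.43 and 3.70 CPM in the PyMT-Cxcr2-/- TANs and 0.540, 1.02, 0.402 and 0.561 CPM in BM, and its lowest TAN library lay above its highest BM library.

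Mmp14, the membrane-bound collagenase that also activates the gelatinase Mmp2, had 2, 4, 2 and 0 counts in the BM libraries. It was 35.3, 76.1, 76.7 and 42.6 CPM in the PyMT TANs and 77.6, 73.0, 37.6 and 38.0 CPM in the PyMT-Cxcr2-/- TANs, so that each group held 2 libraries above 70 and 2 below 45 CPM. Adam8, which sheds adhesion molecules from the cell surface, was 1271, 1106, 959.9 and 1103 CPM in the PyMT TANs, 1775, 2203, 2390 and 2402 CPM in the PyMT-Cxcr2-/- TANs and 1857, 2207, 2097 and 2045 CPM in BM. PyMT TANs were thus lowest and the other groups overlapped. Adam17, the TNF-converting enzyme, was 285.7, 255.5, 219.7 and 263.2 CPM in the PyMT TANs, 299.9, 282.2, 392.2 and 343.4 CPM in the PyMT-Cxcr2-/- TANs and 169.4, 172.7, 170.7 and 151.9 CPM in BM, where it was lowest and varied least of all the members (5.79% of its mean).

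The 2 inhibitors were far apart. Timp2 was 81.6, 136.6, 211.7 and 149.4 CPM in the PyMT TANs, 205.4, 270.5, 225.9 and 232.9 CPM in the PyMT-Cxcr2-/- TANs and 517.9, 388.7, 383.0 and 376.2 CPM in BM, so that BM was highest and the TAN groups overlapped at their edges. Timp1 was near the limit of detection, with 2, 4, 18 and 10 counts in BM, 2, 28, 0 and 24 counts in PyMT TANs and 64, 52, 0 and 27 counts in PyMT-Cxcr2-/- TANs. A count of 0 allows up to 3 counts, which is 0.0625 to 0.102 CPM in the PyMT TANs and 0.0566 to 0.0770 CPM in the PyMT-Cxcr2-/- TANs.

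**Figure D2:**
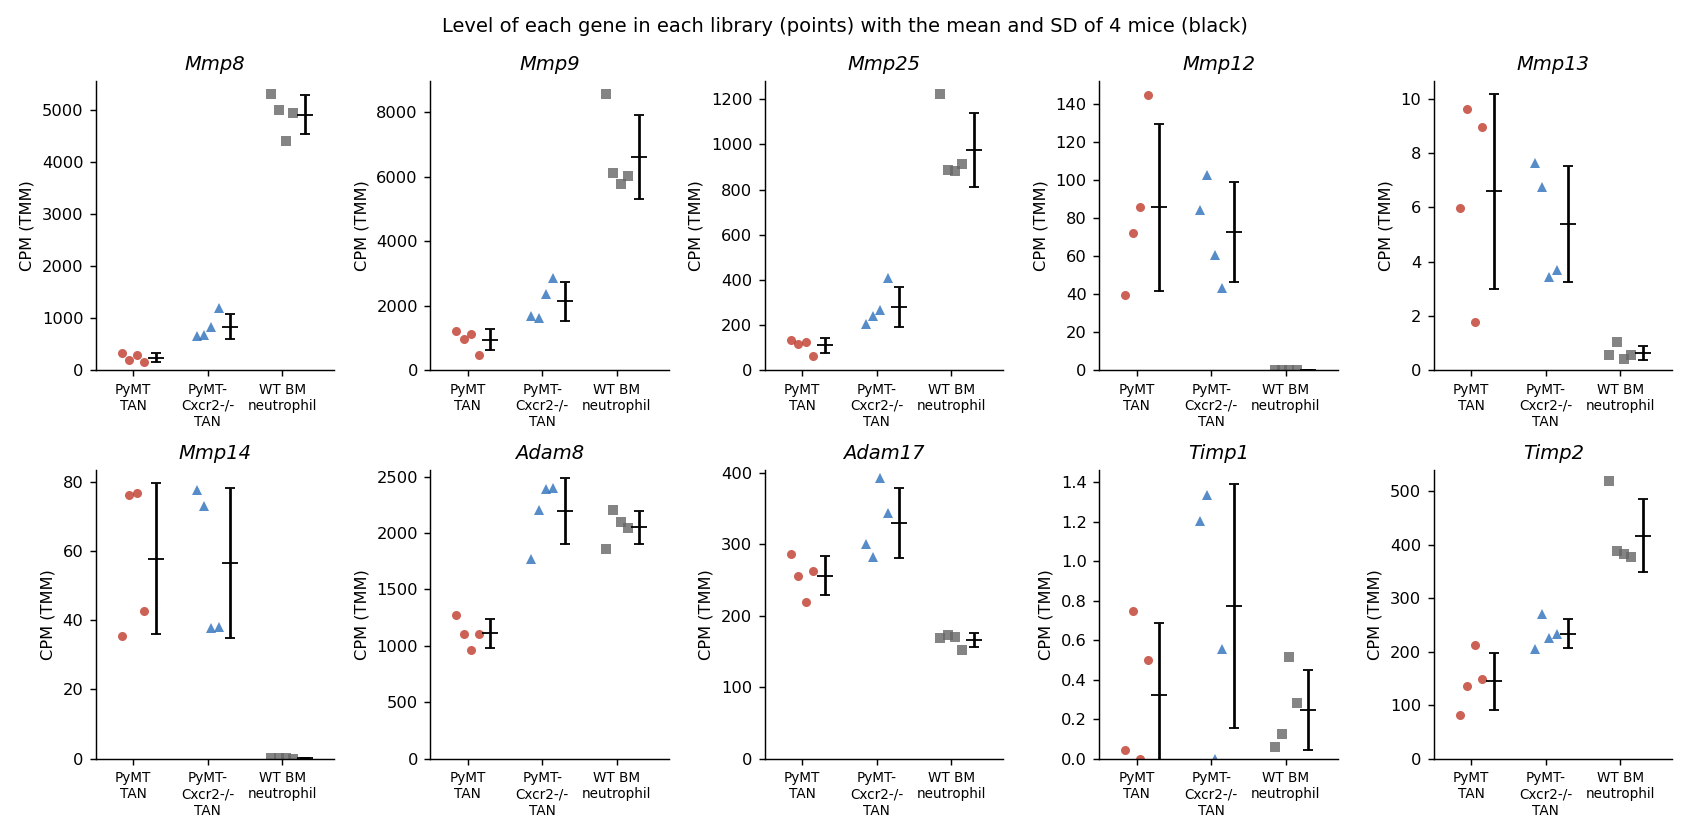
CPM of the 10 genes in each library (points, replicates 1 to 4 from left to right in each group), with the mean and SD of 4 mice in black and each panel on its own linear axis from 0, which cuts the lower SD bar of Timp1 in PyMT TANs. The BM points lie highest for Mmp8, Mmp9, Mmp25 and Timp2 and at or near 0 for Mmp12 and Mmp14.

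Levels of different genes were compared as CPM per kilobase of exon. In BM the order was led by Mmp8 at 2025 ± 155 and Mmp9 at 1872 ± 369 CPM per kilobase (SD, n = 4), which overlapped, followed without overlap by Adam8 at 442.4, Mmp25 at 184.2, Timp2 at 106.9 and Adam17 at 23.2, while Timp1 was at 0.276, Mmp13 at 0.236, Mmp14 at 0.0101 and Mmp12 at 0. In PyMT TANs Mmp9 led at 266.6 ± 93.7 CPM per kilobase, overlapping Adam8 at 239.4 ± 27.5, and Mmp8 followed at 97.9 ± 33.9 with no overlap. In PyMT-Cxcr2-/- TANs Mmp9 at 601.4 ± 168, Adam8 at 472.7 ± 63.2 and Mmp8 at 344.4 ± 102 each overlapped the next. Mmp12 and Mmp14 lay close together per length in both TAN groups, at 11.8 and 9.68 CPM per kilobase in PyMT TANs and 10.0 and 9.49 in PyMT-Cxcr2-/- TANs, and overlapped. Timp1 was last among the TAN levels, at 0.363 and 0.872 CPM per kilobase.

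Mmp8 and Mmp9 did not keep their proportion. Per length, the ratio of Mmp8 to Mmp9 was 0.902 to 1.20 in the BM libraries, 0.515 to 0.611 in those of PyMT-Cxcr2-/- TANs and 0.283 to 0.476 in those of PyMT TANs, with no overlap between the 3 groups. The ratio of Mmp25 to Mmp9 moved less, at 0.0952 to 0.102, 0.0753 to 0.0999 and 0.0732 to 0.0845 in the same order. These ratios are free of the scaling between libraries and were not tested.

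The first comparison asked what the loss of Cxcr2 goes with in TANs. 3 members passed the thresholds (adjusted p under 0.05 and a fold of 1.5 or more), all higher in PyMT-Cxcr2-/- TANs, against 1.38% of the 18463 genes tested, and none was lower, against 0.596% (0 lower at an unadjusted p under 0.05 in edgeR, and 0 past the thresholds in DESeq2). Mmp8 rose 3.51-fold, a log2 fold change of 1.81 ± 0.27 (SE, edgeR quasi-likelihood test, adjusted p = 0.0113). Mmp25 rose by a log2 fold change of 1.37 ± 0.27 (edgeR, adjusted p = 0.0268) and Adam8 by 0.98 ± 0.15 (edgeR, adjusted p = 0.0117). Mmp9 was 1.17 ± 0.28 higher on the log2 scale and missed the threshold (edgeR, adjusted p = 0.0618), although all 4 PyMT-Cxcr2-/- libraries lay above all 4 PyMT libraries.

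For 4 members, Mmp8, Mmp9, Mmp25 and Adam8, the TAN groups did not overlap and PyMT-Cxcr2-/- was the higher, which held for 6.33% of genes tested, and for none was it the lower without overlap, which held for 5.7%. Timp2 had a log2 fold change of 0.69 ± 0.24 (edgeR, adjusted p = 0.175) and Adam17 of 0.36 ± 0.15 (edgeR, adjusted p = 0.255), neither past the threshold. The other 4 gave intervals on both sides of 0. The 95% interval of the log2 fold change was -1.04 to 0.56 for Mmp12, -1.31 to 0.72 for Mmp13, -0.72 to 0.66 for Mmp14 and -1.75 to 4.23 for Timp1. The median log2 fold change of the 10 members was 0.83, beside -0.07 over all genes tested.

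Other neutrophil genes rose with them. Of 11 genes for other granule and membrane proteins of neutrophils, 5 rose, none fell and 6 did not pass, with a median log2 fold change of 1.58 (DESeq2 called 10 higher). Of all genes tested, 1.38% rose and 0.596% fell in edgeR, and DESeq2 called 693 of 18463 higher. The antimicrobial Camp rose by 2.68 ± 0.50 on the log2 scale (edgeR, adjusted p = 0.0290) and Ngp, another granule protein, by 2.60 ± 0.38 (edgeR, adjusted p = 0.0113). Of the 10 neutrophil markers 4 rose, among them Ly6g, the surface protein of the sorting gate, by 1.81 ± 0.27 (edgeR, adjusted p = 0.0113), and only Cxcr2 fell. The part of these genes in the rise of Mmp8, Mmp25 and Adam8 was not tested.

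The calls between the TAN groups rested on few mice. Without PyMT TAN replicate 2 none of the 3 passed (edgeR, adjusted p = 0.0576 for Mmp8, 0.0921 for Mmp25 and 0.0591 for Adam8, with log2 fold changes of 1.71, 1.40 and 0.98), and Mmp25 alone also missed the threshold without PyMT TAN replicate 3, PyMT-Cxcr2-/- TAN replicate 3 or PyMT-Cxcr2-/- TAN replicate 4 (0.0609, 0.0788 and 0.0845). Adam8 also missed it with an adjustment for GC content and exon length (edgeR, adjusted p = 0.0601). DESeq2 called 5 members higher, beside 693 of all 18463 genes, adding Mmp9 (adjusted p = 0.000772) and Timp2 (adjusted p = 0.0299).

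**Figure D3:**
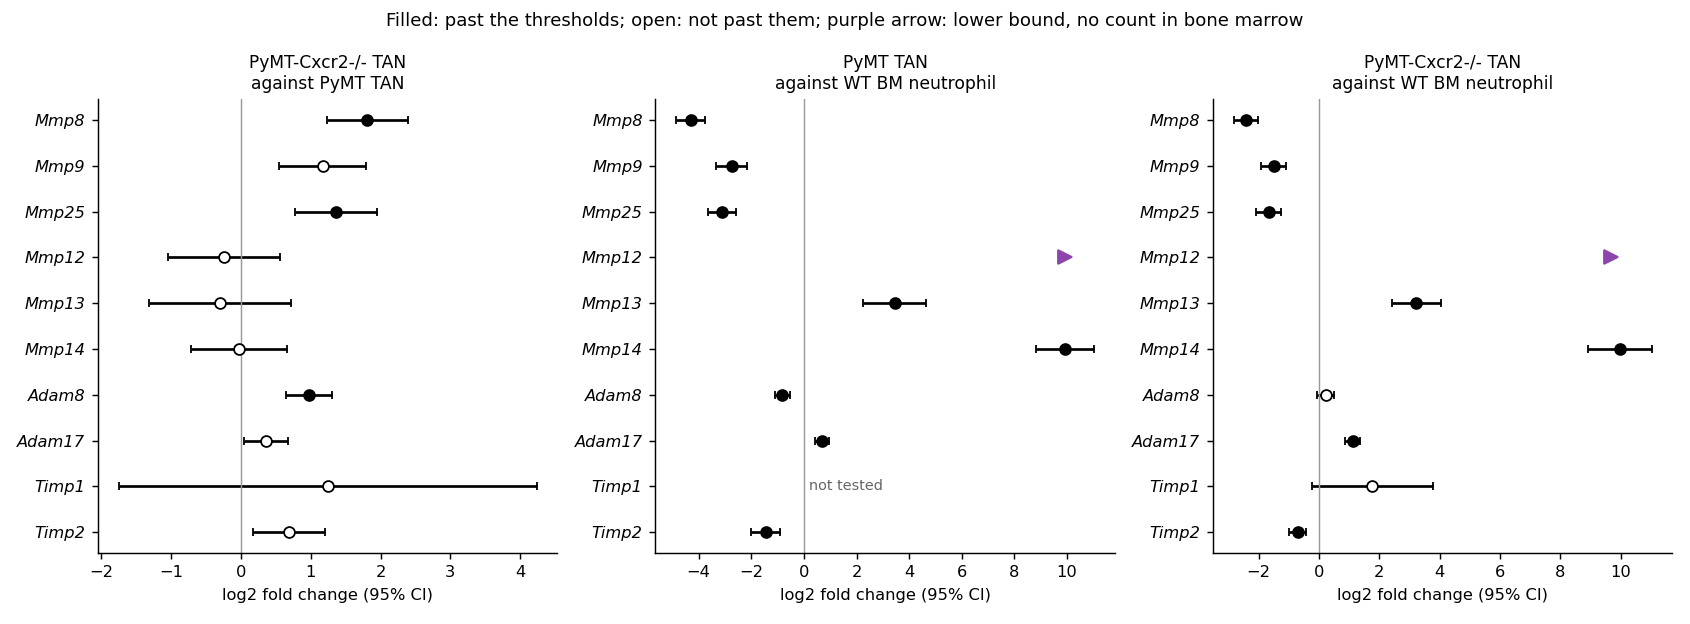
Log2 fold change of each gene with its 95% interval in the 3 comparisons, filled where past the thresholds and open where not; purple arrows are lower bounds for Mmp12, which had no count in BM. The granule proteases lie right of 0 in the left panel and left of 0 in the panels against BM, where Mmp14, at 9.92 and 9.97, and the bounds of Mmp12 lie farthest right.

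The other comparisons set each kind of TAN against BM neutrophils, to see how tumor neutrophils differ from those of the marrow. Both use the same 4 BM libraries, so they are given side by side and are not independent. In PyMT TANs 4 of the 9 members tested were higher, against 30.1% of the 17153 genes tested, and 5 were lower, against 23.2%. In PyMT-Cxcr2-/- TANs 4 of 10 were higher, against 34.4% of the 17732 genes tested, and 4 were lower, against 25.1%. The same 4 genes, Mmp12, Mmp13, Mmp14 and Adam17, were the higher ones in both, and Mmp8, Mmp9, Mmp25 and Timp2 the lower ones, joined by Adam8 in PyMT TANs. The groups did not overlap for any member called. Higher without overlap were 28.8% and 32.2% of all genes tested in the respective comparisons, and lower without overlap 29.5% and 33.8%.

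Among the granule proteases Mmp8 fell by 4.31 ± 0.25 on the log2 scale in PyMT TANs and by 2.42 ± 0.18 in PyMT-Cxcr2-/- TANs (edgeR, adjusted p = 1.8e-07 and 1.1e-07). The log2 fold changes of Mmp25 were -3.11 and -1.67 and those of Mmp9 -2.75 and -1.51, all past the thresholds. Of the 11 other granule and membrane genes, 10 fell in each comparison, beside 23.2% and 25.1% of all genes. None rose, beside 30.1% and 34.4%. Camp, the one with the largest fold, fell by 6.93 and 4.19.

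Mmp12 was at least 972-fold higher in PyMT TANs and at least 823-fold higher in PyMT-Cxcr2-/- TANs than a floor of 3 counts in each BM library, or 0.0883 CPM. Mmp14 was higher by 9.92 ± 0.50 and 9.97 ± 0.48 on the log2 scale (edgeR, adjusted p = 8.3e-08 and 1.7e-08), differences that rest on 8 BM counts in all. Mmp13 was higher by 3.45 ± 0.55 and 3.23 ± 0.37, on 85 BM counts. In GENCODE 2.17% of the Mmp12 exon bases lie opposite Mmp1b, which had 15 counts in PyMT-Cxcr2-/- TANs and none elsewhere.

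Across the 8 TAN libraries the macrophage markers moved with Mmp14, and less closely with Mmp12 and Mmp13. Mmp14 was highest in PyMT TAN replicates 2 and 3 and PyMT-Cxcr2-/- TAN replicates 1 and 2, which were also the 4 of the 8 TAN libraries with the most macrophage marker RNA (4924, 5304, 4287 and 4998 CPM). The other 4 TAN libraries had 2209 to 3650 CPM of macrophage markers and 35.3 to 42.6 CPM of Mmp14. Mmp12 shared 3 of its 4 highest libraries with the markers, PyMT TAN replicate 4 being the exception, at 145.0 CPM of Mmp12 and 3650 CPM of markers. Mmp13 also shared 3, but its lowest TAN library, PyMT TAN replicate 3, was the highest in markers. Marker lists of other cell types shared high libraries with these proteases to differing degrees, where unrelated orders would share 2 of 4 on average. Of their 4 highest TAN libraries, the epithelial markers shared 4 with Mmp12 and 3 each with Mmp13 and Mmp14. The 7 fibroblast markers shared 3 each with Mmp12 and Mmp14 and 2 with Mmp13. The 5 endothelial markers shared 3 with Mmp12 and 2 each with Mmp13 and Mmp14, and the 6 lymphocyte markers 1 each with Mmp12 and Mmp13 and 2 with Mmp14. The part of any of these cell types in these proteases was not tested.

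**Figure D4:**
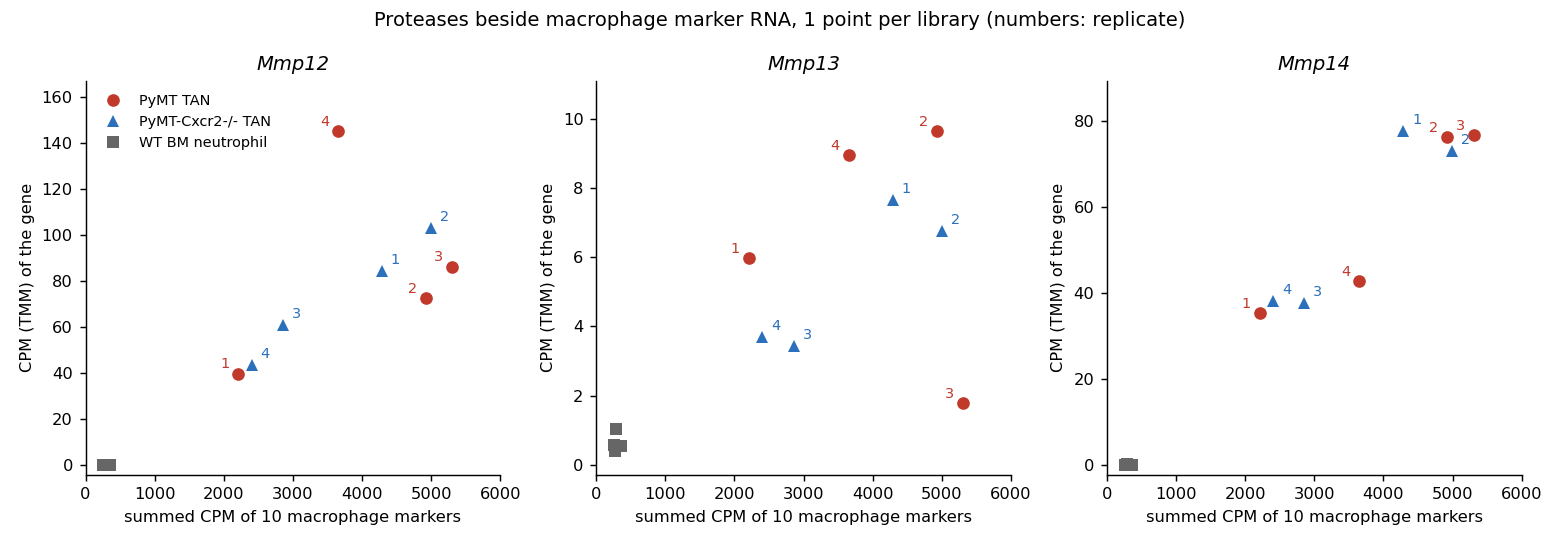
CPM of Mmp12, Mmp13 and Mmp14 against the summed CPM of 10 macrophage markers, 1 point per library with its replicate number for the TANs. The 4 TAN libraries with 4287 to 5304 CPM of markers have the most Mmp14, while Mmp13 in PyMT TAN replicate 3 is low at 5304 CPM of markers.

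Adam17 rose by 0.69 ± 0.11 in PyMT TANs and by 1.12 ± 0.12 in PyMT-Cxcr2-/- TANs on the log2 scale (edgeR, adjusted p = 3.4e-04 and 1.6e-06). Adam8 fell by 0.82 ± 0.12 in PyMT TANs (edgeR, adjusted p = 1.8e-04), while PyMT-Cxcr2-/- TANs stood 0.23 above BM on that scale, with a 95% interval of -0.05 to 0.51 (edgeR, adjusted p = 0.131). Scaled by library totals in place of TMM, its log2 fold change in PyMT TANs was -0.38 and missed the fold threshold. The direct comparison of the TANs above is the test of that difference. With the GC content and length adjustment Adam17 in PyMT TANs was at 0.44 and missed the fold as well. Of the Adam17 exon bases, 4.35% lie opposite Iah1, and of those of Adam8, 0.992% opposite Gm16201.

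Timp2 fell by 1.45 ± 0.25 and 0.70 ± 0.13 (edgeR, adjusted p = 4.4e-04 and 3.2e-04), the latter moving to -0.51 and under the fold threshold with library totals. Timp1 did not pass the filter on low counts in PyMT TANs against BM, and in PyMT-Cxcr2-/- TANs it missed the threshold (edgeR, adjusted p = 0.106) and passed without replicate 3 of that group (edgeR, adjusted p = 0.00740), which had no count. With Mmp12 at its bound, the median log2 fold change was -0.82 over the 9 members tested in PyMT TANs. Over the 10 tested in PyMT-Cxcr2-/- TANs it was 0.68, beside 0.09 and 0.09 over all genes. Timp1 entered the second median alone, at 1.77, so the medians are not over the same genes.

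Within a library the counts of Mmp14 were 0.432, 0.557, 0.362 and 0.285 of those of Timp2 in PyMT TANs and 0.378, 0.270, 0.167 and 0.163 in PyMT-Cxcr2-/- TANs, with 0.5 added to each count. The groups overlapped, and in BM the ratio was at most 0.000358. The ratios of Mmp8 and Mmp9 to Timp1 rest on Timp1 counts of 0 to 64. On the log2 scale Mmp9 to Timp1 was 14.99 ± 1.46 in BM, 12.67 ± 3.06 in PyMT TANs and 12.69 ± 3.54 in PyMT-Cxcr2-/- TANs (SD, n = 4), and Mmp8 to Timp1 was 14.57, 10.69 and 11.34. None of these ratios was tested.

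The cluster on chromosome 9 spans 427.1 kilobases (GENCODE M21, GRCm38, 7272514 to 7699585) and holds, in order, Mmp13, Mmp12, Mmp1b, Mmp3, Mmp1a, Mmp10, Mmp8, Mmp27, Mmp20 and Mmp7. Mmp12 and Mmp13, at one end, were higher in TANs than in BM, and Mmp8 and its neighbor Mmp27 lower. Mmp27 was 6.06 to 6.88 CPM in BM, 0.160 to 0.751 CPM in the PyMT TANs and 0.547 to 1.42 CPM in the PyMT-Cxcr2-/- TANs, and fell by 3.65 ± 0.44 and 2.76 ± 0.28 on the log2 scale (edgeR, adjusted p = 3.4e-05 and 1.4e-06). The other 6 genes of the cluster had at most 22 counts per group. The remaining members lie apart, Mmp9 on chromosome 2, Adam8 on 7, Timp2 on 11, Adam17 on 12, Mmp14 on 14, Mmp25 on 17 and Timp1 on X.

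**Figure D5:**
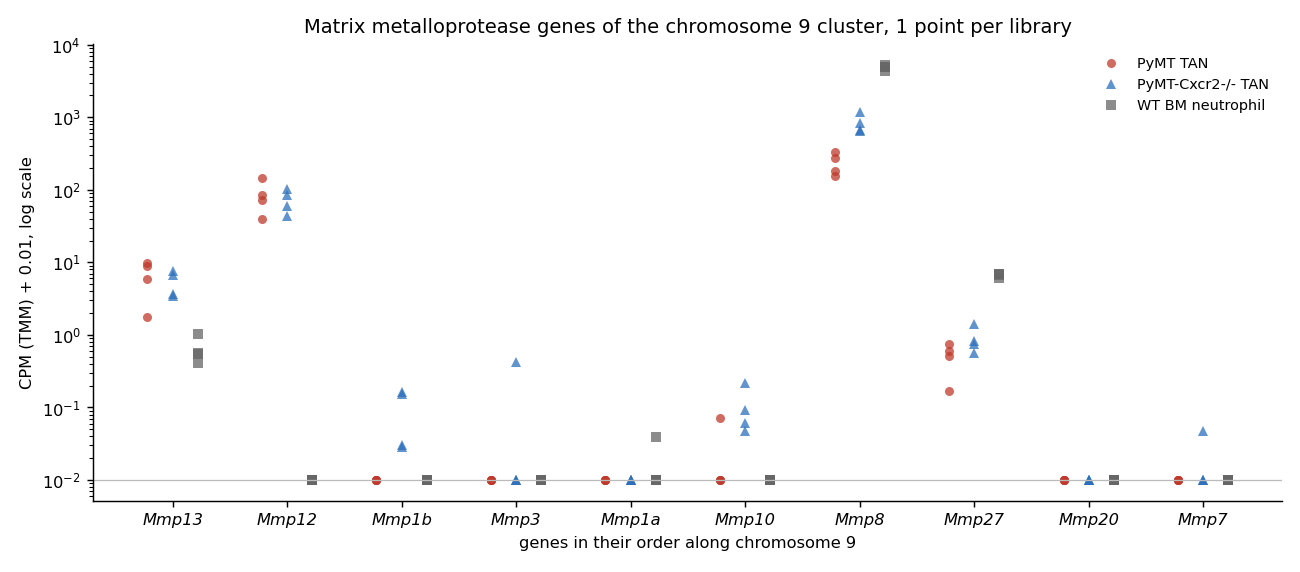
CPM plus 0.01 on a log axis for the 10 metalloprotease genes of the chromosome 9 cluster in their order along it, 1 point per library; the grey line marks no count. Mmp8 and Mmp27 are highest in BM, Mmp12 and Mmp13 in TANs, and the other 6 genes lie at or near the line.

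Of 17 other matrix metalloproteases, 11 were tested between the TAN groups and none passed in edgeR or DESeq2, with 0 at an unadjusted p under 0.05 in either. Against BM, 6 of 10 tested were higher and 1 lower in PyMT TANs, where 30.1% and 23.2% of all genes were, and 5 of 10 higher and 2 lower in PyMT-Cxcr2-/- TANs, where 34.4% and 25.1% of all genes were. Mmp15, a transmembrane metalloprotease, was 6.03 and 8.10 CPM in the TANs and 0.118 CPM in BM, and was higher by 5.71 ± 0.75 and 6.21 ± 0.66 on the log2 scale. Mmp19 was 16.8 and 12.6 CPM in the TANs and 0.485 CPM in BM and was higher by 5.17 and 4.83. Mmp28, the second one lower in PyMT-Cxcr2-/- TANs, fell by 1.22 ± 0.48 (edgeR, adjusted p = 0.0365). Its means were 0.641 CPM there and 1.64 CPM in BM, and these groups overlapped. In PyMT TANs Mmp28 was 1.69 ± 0.85 lower than in BM without overlap, at 0.481 CPM, and missed the threshold (edgeR, adjusted p = 0.111).

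Among 7 other Adam genes, Adam15 rose between the TAN groups by 0.81 ± 0.14 (edgeR, adjusted p = 0.0190). It was the only one of 6 tested, beside 1.38% of all genes (DESeq2 called 2 higher, and 693 of all 18463). Adam28 was 7.03-fold lower in PyMT-Cxcr2-/- TANs, at 0.144 to 0.289 CPM against 0.887 to 2.08 CPM, did not overlap and missed the threshold (edgeR, adjusted p = 0.0550). Adam19 was 0.65 ± 0.21 higher on the log2 scale (edgeR, adjusted p = 0.151), and both had an unadjusted p under 0.05. Against BM, 3 of the 7 tested rose in PyMT TANs and 2 fell, beside 30.1% and 23.2% of all genes. Adam15 fell by 1.22 ± 0.15 and Adam19 by 0.93 ± 0.20. The rises were led by Adam33 and Adam28, which had 2 and 18 counts over the BM libraries, and Adam9 rose by 1.75 ± 0.12. Adam12 was 1.94 ± 1.22 lower in PyMT TANs and did not pass (edgeR, adjusted p = 0.196). In PyMT-Cxcr2-/- TANs Adam9 rose by 1.93 ± 0.12 and Adam12 fell by 1.60 ± 0.64, to between 0.0413 and 0.976 CPM. These were 1 each of 5 tested, neither above the 34.4% and 25.1% of all genes. Of 19 Adamts genes, secreted relatives that cut proteoglycans and procollagens, none of 13 tested passed between the TAN groups in edgeR or DESeq2, with 2 and 3 at an unadjusted p under 0.05. Against BM 4 rose and 2 fell of 8 tested in PyMT TANs and 5 rose and 2 fell of 10 tested in PyMT-Cxcr2-/- TANs, the falls being near the 23.2% and 25.1% of all genes and the rises set against 30.1% and 34.4%. Adamts10 fell by 1.65 and 1.16 and Adamts5 by 2.83 and 0.82. Adamts1, with 2 BM counts in all, was 0.907, 0.641, 0.273 and 11.5 CPM in the PyMT TANs, where replicate 4 held 551 of the 626 counts, and 0.493 to 6.83 CPM in the PyMT-Cxcr2-/- TANs. Adamts4, on 10 BM counts, was 0.295, 0.214, 0.546 and 2.08 CPM in the PyMT TANs, with 100 of the 138 counts in the same replicate 4. Adamts15, with none in BM, was at least 12.7-fold higher in PyMT-Cxcr2-/- TANs. In PyMT TANs it was not tested and overlapped BM, while its mean of 1.35 CPM was at least 15.3-fold higher.

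Of 4 other inhibitors none of 3 tested passed between the TAN groups in edgeR, with 1, Reck, at an unadjusted p under 0.05, which DESeq2 called. Reck, a membrane inhibitor of metalloproteases, was 73.3 CPM in BM, 3.33 CPM in the PyMT TANs and 7.32 CPM in the PyMT-Cxcr2-/- TANs, and fell by 4.39 ± 0.21 and 3.19 ± 0.25 on the log2 scale (edgeR, adjusted p = 6.0e-08 and 4.0e-07). Timp3, an inhibitor that binds the matrix, rose by 4.0 ± 1.09 and 3.66 ± 0.70, from 0.0561 to 0.516 CPM in BM to 0.295 to 9.21 CPM and 0.884 to 5.83 CPM, PyMT TANs overlapping BM. These 2 were the only ones of the list tested against BM.

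Another list held 13 genes chosen as activators or partners of the proteases. Between the TAN groups 1 of 11 tested passed, beside 1.38% of all genes tested. It was Lcn2, also on the list of other granule genes, with a rise of 1.58 ± 0.24 (edgeR, adjusted p = 0.0113). Against BM 3 rose and 7 fell of 12 tested in PyMT TANs, beside 30.1% and 23.2% of all genes, and 4 rose and 5 fell of 13 in PyMT-Cxcr2-/- TANs, beside 34.4% and 25.1%, so that the rises were near the share of all genes. Elane and Ctsg, serine proteases of primary granules, fell from 13.4 and 4.13 CPM in BM to 46 and 4 counts over the PyMT TANs, 38 of those of Elane in replicate 2, and to 56 and 2 counts over the PyMT-Cxcr2-/- TANs. Rhbdf1, a partner of Adam17, rose by 6.48 ± 0.74 and 6.24 ± 0.49, on 12 BM counts. Bsg, the metalloprotease inducer basigin, rose by 1.58 ± 0.17 in PyMT TANs, and Plat, the tissue plasminogen activator, was 0.685 CPM in the PyMT-Cxcr2-/- TANs on 2 BM counts.

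Of 12 substrates of Adam17 tested between the TAN groups, 1 rose and 1 fell, beside 1.38% and 0.596% of all genes. Their median log2 fold change was 0.22. The cytokine Tnf was the one that fell, by 1.25 ± 0.24 (edgeR, adjusted p = 0.0263), from a range of 123.5 to 231.3 CPM to one of 43.0 to 84.2 CPM. Against BM 7 of 10 tested rose and 1 fell in PyMT TANs, beside 30.1% and 23.2% of all genes. In PyMT-Cxcr2-/- TANs 9 of 12 rose and 1 fell, beside 34.4% and 25.1%. The growth factor Areg and the chemokine Cx3cl1 had no count in BM and were at least 34.7-fold and 31.0-fold higher in PyMT TANs and at least 44.6-fold and 39.3-fold higher in PyMT-Cxcr2-/- TANs.

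The genes most like 4 of the members were found as those with the smallest root mean square difference of centred log2 CPM over the 12 libraries. For Mmp8, whose own SD on that scale was 1.85, they were Crispld2 (0.171), Nhsl2 (0.231) and Ckap4 (0.243). For Mmp9 they were E2f2 (0.116), Triobp (0.119) and Prkab1 (0.158), and Mmp25 stood at 0.178 from Mmp9, the nearest of the 45 pairs of members. For Mmp12 they were Fcrls (0.509), Pmepa1 (0.560) and Dab2 (0.678). For Timp1 the nearest, Gm15738, was at 0.846, Gm47980 at 0.936 and Gm37303 at 0.962, on counts too low to read a pattern from.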

How the data were processed

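Neutrophils sorted from mammary tumors and BM were profiled by RNA-seq in 3 groups of 4 mice. The authors depleted ribosomal RNA, sequenced paired-end reads, aligned them to mm10 and used HTSeq to count reads on each gene. What they deposited are raw counts. The strand setting of the counting is not given in the sources used here, so genes that overlap another one are uncertain. Reads not on a gene, 46.3 to 60.5% of each library, were left out of the totals. Of 55335 gene rows, 55154 were matched to GENCODE M21 by identifier.

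Each comparison was fitted on its 8 libraries with edgeR 4.0.16 (R 4.3.3), using TMM, filterByExpr at its defaults and the robust quasi-likelihood test, with Benjamini-Hochberg adjustment over all genes tested. Thresholds were an adjusted p under 0.05 and a fold of 1.5. The SE is the size of the log2 fold change over the root of its F statistic. CPM used TMM factors over the 12 libraries. A count of 0 was given a floor of 3 counts per library, which covers counting error only. The scripts were tested on simulated data. Alternatives were DESeq2 1.42.0, other scalings and filters, 1 fit of 12 libraries, a replicate block, an adjustment for GC content and exon length, and leaving out each mouse. Genes were named by a rule of up to 2 per list, direction and comparison, by fold among those past the thresholds, besides the members, Cxcr2 and the nearest profiles, and 1 gene that the rule names is not reported here. The members and lists were chosen with earlier results of these data known. Upstream bases are from RefSeq, GRCm38.p6.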

Additional observations from a re-analysis of the deposited data

Results flagged for a closer look

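In 4 of the 29 sets of 4 libraries tested, 1 library lay far from the other 3 by Dixon's ratio, where chance gives about 1 in 20. All 4 were in BM. Replicate 1 was the highest for Mmp9 at 8571 CPM, for Mmp25 at 1223 CPM and for Timp2 at 517.9 CPM, and replicate 4 was the lowest for Adam17 at 151.9 CPM. Without BM replicate 1 the log2 fold changes in PyMT TANs were -2.65 for Mmp9, -3.03 for Mmp25 and -1.38 for Timp2, each still past the thresholds.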

How the results depend on the processing

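Between the TAN groups 3 members were higher. The count was 0 with a replicate block, 0 with the GC content and length adjustment in the same fit as the block, 2 with that adjustment alone (Adam8 missing, adjusted p = 0.0601), 4 in the fit of all 12 libraries (Mmp9 added, adjusted p = 0.0176) and 5 with DESeq2. Leaving out 1 mouse gave 0 to 4, with 0 without PyMT TAN replicate 2 and 4 without PyMT TAN replicate 1. The replicate numbers name different animals, and same-numbered TAN libraries deviated from their group means with correlations of -0.205 to -0.070, so the numbers were not read as pairs. With the block the adjusted p was 0.109 for Mmp8, 0.207 for Mmp25 and 0.135 for Adam8, and no call against BM was lost to the block alone. Over all genes the block called 13 genes between the TAN groups against 365, DESeq2 987, the 12-library fit 886, no filter 594, library totals 597, the GC adjustment 210 and the GC adjustment with the block 8, and leaving out 1 mouse gave 23 (without PyMT TAN replicate 2) to 513 (without PyMT TAN replicate 1).

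Against BM the counts of members stayed within 1.5 times. Adam8 in PyMT TANs missed the fold with library totals (-0.38), Adam17 in PyMT TANs with the GC adjustment (0.44, and 0.42 with the block as well) and Timp2 in PyMT-Cxcr2-/- TANs with library totals (-0.51). Timp1 in PyMT-Cxcr2-/- TANs passed with the GC adjustment (2.26, adjusted p = 0.0471) and without PyMT-Cxcr2-/- TAN replicate 3 (2.20, adjusted p = 0.00740), the library of that group with 0 counts.

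Signs turned only for differences that were not called. Between the TAN groups Mmp14 was 0.0076 with DESeq2 size factors, 0.031 without a filter and 0.0073 with DESeq2, and leaving out 1 mouse gave -0.22 to 0.15, turning without PyMT TAN replicate 2 or 3 (0.14 and 0.14) or PyMT-Cxcr2-/- TAN replicate 3 or 4 (0.14 and 0.15). Mmp12 was 0.14 without PyMT TAN replicate 4, in a range of -0.45 to 0.14. Adam8 in PyMT-Cxcr2-/- TANs against BM was -0.0035 with the GC adjustment and -0.0068 with the block as well. The cause of these changes was not tested.

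Library totals moved the median log2 fold change of all genes from -0.07 to -0.26 between the TAN groups, from 0.09 to 0.53 in PyMT TANs against BM and from 0.09 to 0.27 in PyMT-Cxcr2-/- TANs against BM. The split of calls between the TAN groups went from 255 higher and 110 lower to 206 higher and 391 lower, and the 3 members called higher kept their calls. Mean CPM by library totals was 4052 for Mmp8, 802.5 for Mmp25, 1704 for Adam8, 137.6 for Adam17 and 342.3 for Timp2 in BM, and 1302 for Adam8 and 300.5 for Adam17 in PyMT TANs. Low counts limit Timp1, at 0 to 64 per library.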
